A study of Homo sapiens with 6 samples.

Results

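Melanoma cells of the established human line SK-Mel-147 that had been transfected with antagomiR-638 were compared with mock cells 48 h after transfection. The samples were chosen by their labels: 2 antagomiR-638 arrays and 2 mock arrays, 4 of the 6 Illumina HumanHT-12 v4 arrays of the study. The other 2 arrays hold RNA of cells given miR-638, and they entered the statistical model as a group of their own. All cells grew in DMEM with fetal calf serum, and were transfected without antibiotics. An antagomiR is a synthetic oligonucleotide that binds a microRNA and blocks it. The sources differ on the control: the sample titles name mock transfection, the series description a non-targeting control, the study's legend a control antagomiR, and the intensity headers read NT. The controls are called mock here. A single cell line, 1 time point and duplicates limit the model, and since the labels do not say that duplicates came from separate cultures, the p-values measure no more than how far these arrays spread, and that spread may be technical.

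MicroRNAs such as miR-638 guide silencing proteins to messenger RNAs that pair with their seed, bases 2 to 8. The miR-638 gene lies within DNM2 on chromosome 19, and DNM2 encodes a dynamin of endocytosis. The mature sequence, from RefSeq (GRCh38.p14, chr19:10718419-10718443, plus strand, 25 bases), is shown because it is the RNA that the inhibitor was made to bind, with the seed in capitals.
hsa-miR-638: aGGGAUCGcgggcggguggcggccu
The probe for the miR-638 gene was not detected on both arrays of either group, so these arrays do not show the level of the microRNA itself.

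Cells that sense foreign nucleic acid switch on interferon-stimulated genes, whose products block viruses and whose promoters carry the interferon-stimulated response element, read by complexes with IRF proteins. Cells with damaged DNA raise CDKN1A, MDM2 and genes of arrest, repair and death. Genes of DNA replication and mitosis are turned on in waves by E2F factors and by the MuvB-containing complexes that read the cell-cycle homology region, and the DREAM complex keeps both sets off in resting cells.

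The level of each probe is given as the deposited intensity, which is background-subtracted, on a linear scale and already quantile-normalized between arrays, so a shift of the whole transcriptome up or down would not show. Probes with a detection p under 0.05 on both arrays of either group were kept, 19413 of 47319, standing for 11250 named genes. Between 20077 and 20664 probes were detected on each of the 4 arrays. Across kept probes the mock arrays correlated at r = 0.995 and the antagomiR-638 arrays at r = 0.995, against 0.978 to 0.981 between the groups. A gene was called higher or lower at a limma adjusted p of 0.01 or less. SOX10, a transcription factor of the melanocyte lineage, gave 1046 and 1295 in mock cells and 1300 and 1237 with antagomiR-638. It was 1 of 6 melanocyte genes kept of 15, of which 0 were called. The pigment cell genes TYR, TYRP1, PMEL, MLANA and KIT were not detected on both arrays of either group. Of the markers of other cell types, 3 of 10 for leukocytes, 2 of 8 for keratinocytes and 1 of 9 for fibroblasts and endothelium were kept. The 2 keratinocyte markers summed to 1096 and 1192 in mock cells and 1392 and 1242 with antagomiR-638. The 6 melanocyte genes summed to 1259 and 1548, and 1631 and 1483. The fibroblast and endothelial marker read 558 and 563, and 689 and 704.

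With antagomiR-638, 692 genes were higher (6.15% of those tested) and 558 lower (4.96%), 1250 in all (11.1%). The rises reached further than the falls. The largest rise was 4.30 on the log2 scale and the largest fall -1.72. By at least 4-fold, 21 genes were higher and 0 lower, and by at least 2-fold the counts were 197 and 172. The median difference over all genes was 0.01, and 5% of genes lay below -0.62 and 5% above 0.69. Without antagomiR-638 array 1, 310 genes were called, without antagomiR-638 array 2, 375, without mock array 1, 561, and without mock array 2, 494, against 1137 without either miR-638 array. Of the 1250, 145 higher and 120 lower genes kept the call with any 1 array left out.

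**Figure D1:**
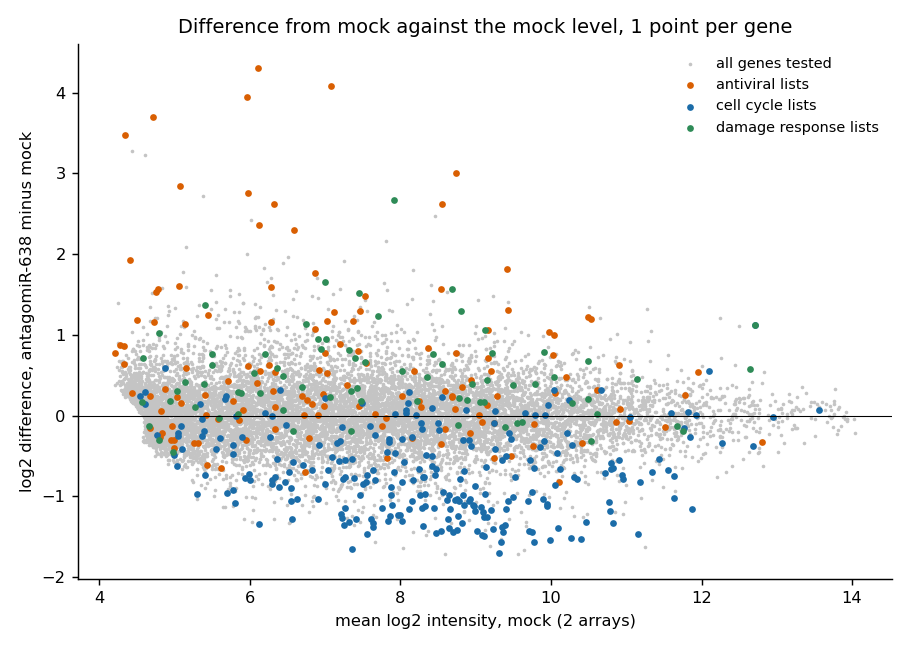
Each point is a gene, with its mean log2 intensity on the 2 mock arrays on the x axis and the log2 difference, antagomiR-638 minus mock, on the y axis, and members of the antiviral, cell-cycle and damage-response lists in colour. The points above 2 are mostly members of the antiviral lists (12 of 21). The cell-cycle lists hold 84 of the 172 genes called at least 2-fold lower. The lowest points, down to -1.72, include genes outside the coloured lists.

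Genes of a few kinds made up part of these large changes. Outside all 45 gene lists lay 141 of the 197 genes at least 2-fold higher and 82 of the 172 at least 2-fold lower. The 10 antiviral lists held 137 genes, 1.22% of those tested, and gave 36 of the 197 genes that were at least 2-fold higher (18.3%) and 12 of the 21 that were at least 4-fold higher. The 12 cell-cycle lists held 250 genes, 2.22% of those tested, and gave 84 of the 172 that were at least 2-fold lower (48.8%). The 6 damage-response lists, of arrest, repair and cell death, held 75 genes and gave 11 of the 197. Since the lists were drawn up with earlier results of these arrays known, these shares describe the data and are not independent support. Counts of list members below stand beside the shares over all genes tested, 6.15% higher and 4.96% lower. By sign alone, 5792 of the 11250 differences were above 0 and 5453 below, called or not.

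The largest rises were among the antiviral effectors, proteins that act on viruses directly. Of 42 members tested, 29 were higher and 0 lower, with a median log2 difference of 1.14 against 0.01 over all genes. IFIT1, whose protein binds viral RNA that lacks the host's cap methylation, had intensities of 44.7 and 62.2 on the mock arrays and 1391 and 1293 on the antagomiR-638 arrays. The groups lay far apart, and the rise was 4.30 ± 0.16 on the log2 scale (SE, n = 2 arrays per group, limma, adjusted p = 4.69e-06). A second IFIT1 probe gave 0.77. MX1, a dynamin-like GTPase that traps viral nucleocapsids, had 96.2 and 146.95 in mock cells and 2583 and 2014 with antagomiR-638, a rise of 4.09 ± 0.19 (adjusted p = 6.78e-06). In both genes every antagomiR-638 array was above every mock array. With 2 arrays a group this is common: the groups did not overlap in 7530 of all 11250 genes tested (66.9%).

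IFI27, a small membrane protein induced by type I interferon, had intensities of 34.4 and 61.7 in mock cells and 953 and 943 with antagomiR-638, a rise of 3.95 ± 0.19 (adjusted p = 6.81e-06). IFI6, a related mitochondrial and endoplasmic reticulum protein, had 366 and 459 in mock cells against 3659 and 3168 with the inhibitor, a rise of 3.01 ± 0.14 (adjusted p = 6.92e-06). IFI44L had 12.2 and 7.99 in mock cells against 381 and 274 with the inhibitor, a rise of 3.70 ± 0.16 (adjusted p = 5.45e-06), and 1.14 at its second probe. None of these 3 genes overlapped between groups, which held for 66.9% of all genes tested and was part of the rule that named them. OAS2, an enzyme that makes the 2-5A messenger on double-stranded RNA, was not detected in mock cells (0.698 and 2.59) and read 262 and 166 with antagomiR-638, at least 9.46-fold higher against the detection limit (adjusted p = 1.58e-05), with a log2 difference of 1.28 at its second probe. RSAD2, or viperin, which makes a chain-terminating nucleotide, was likewise undetected in mock cells (2.78 and 4.43), and its antagomiR-638 arrays read 90.3 and 45.3, at least 3.39-fold higher (adjusted p = 5.65e-04).

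Other effectors rose by smaller amounts. IFIT3 had 64.2 and 63.9 in mock cells and 502 and 453 with antagomiR-638 (difference 2.62 ± 0.11, adjusted p = 5.45e-06; its other kept probes gave 1.86 and 0.93), and IFIT2, of the same RNA-binding family, had 78.1 and 81.6 in mock cells against 496 and 415 with the inhibitor (difference 2.29 ± 0.12, adjusted p = 1.58e-05). EPSTI1 differed by 2.84 ± 0.17, IFI44 by 1.82 ± 0.14 and HELZ2, a helicase, by 1.56 ± 0.13. IFITM2 and IFITM3, transmembrane proteins that hold viruses at the endosome, differed by 1.22 and 1.20, though their near-identical sequences mean that their probes may not separate them. OAS1 differed by 1.16 and OAS3 by 1.08, the latter lost without antagomiR-638 array 1 (0.0148). The 13 members that did not pass included GBP1 (0.53, adjusted p = 0.0178), OASL (0.63, 0.0201) and XAF1 (-0.30, 0.219), and the lowest difference in the list was -0.34. Leaving out 1 array gave 25, 23, 20 and 23 higher members with mock array 1, mock array 2, antagomiR-638 array 1 and antagomiR-638 array 2 left out in turn.

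**Figure D2:**
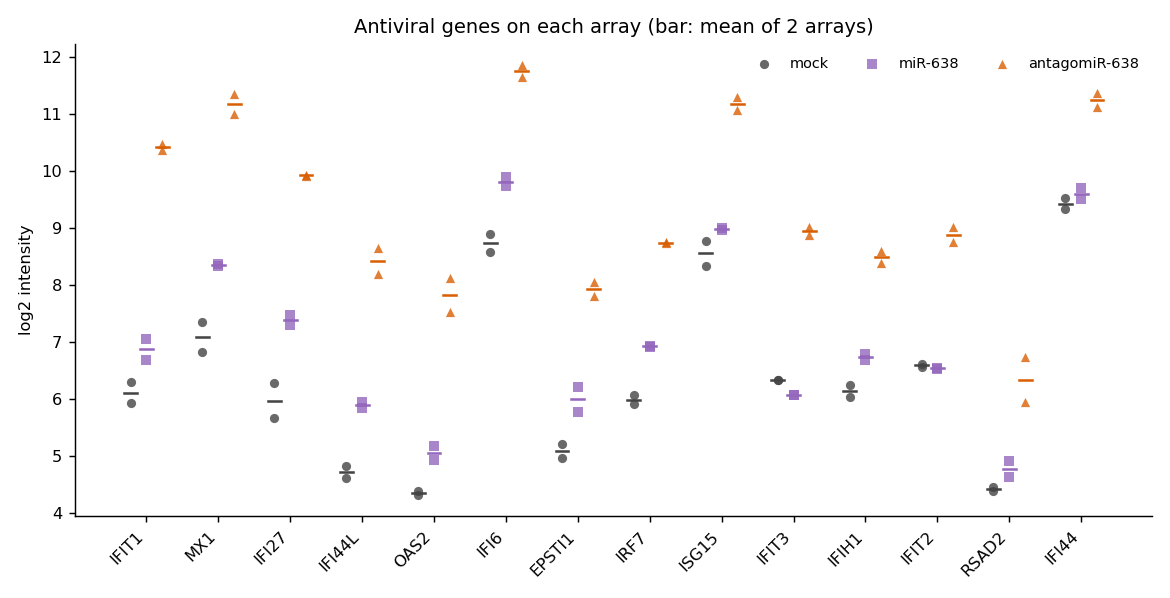
Log2 intensity of the 14 called genes of the antiviral lists with the largest rises, with each array as a point, the mean of 2 arrays as a bar, and groups in colour: mock circles, miR-638 squares, antagomiR-638 triangles. In all 14 genes both antagomiR-638 arrays lie above both mock and both miR-638 arrays. The 14 genes were picked for their rise over mock, and mock and antagomiR-638 arrays did not overlap in 66.9% of all genes tested. The share of all genes that also lie apart from the miR-638 arrays was not counted.

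The sensors that start this response were mixed. Of 16 sensors and adaptors tested, 5 were higher and 1 lower (median 0.31). IFIH1, the MDA5 helicase that recognises long double-stranded RNA, had intensities of 49.2 and 59.1 in mock cells and 369 and 318 with antagomiR-638, a rise of 2.36 ± 0.13 (adjusted p = 1.80e-05), and RIGI, which recognises short RNA with a 5′ triphosphate, had 18.7 and 15.97 in mock cells against 87.0 and 84.0 with the inhibitor, a rise of 1.61 ± 0.13 (adjusted p = 1.27e-04). Both kept the call with any 1 array left out. EIF2AK2, the kinase PKR, differed by 1.06, DHX58 was at least 2.16-fold higher (undetected in mock cells at 6.60 and 5.0) and IFI16 differed by 0.63, while TRAF3, an adaptor, differed by -0.70. The call of EIF2AK2 was lost without mock array 1 (0.0134) or either antagomiR-638 array (0.0255 and 0.0161), and those of DHX58, IFI16 and TRAF3 with any 1 of the 4 mock and antagomiR-638 arrays left out (largest adjusted p 0.0307, 0.0382 and 0.0389). MAVS, the adaptor of both helicases, gave 0.40 (adjusted p = 0.0580), STING1 0.30 (0.204) and TLR3 0.23 (0.249), none of them called. The higher members were 2, 3, 2 and 2 with mock array 1, mock array 2, antagomiR-638 array 1 and antagomiR-638 array 2 left out in turn, and the lower ones 0, 0, 0 and 0.

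At the next step, IRF7, the factor that amplifies interferon production, had intensities of 43.7 and 50.5 in mock cells and 408 and 413 with antagomiR-638, a rise of 2.76 ± 0.11 (adjusted p = 5.45e-06). IRF9, the DNA-binding subunit of the ISGF3 complex, had 648 and 703 in mock cells against 1707 and 1673 with the inhibitor, a rise of 1.30 ± 0.11 (adjusted p = 1.44e-04). USP18, which removes ISG15 and damps the receptor, had 15.2 and 6.91 in mock cells, where 1 of 2 arrays detected it, and 67.2 and 57.6 with antagomiR-638, a rise of 1.53 ± 0.16 (adjusted p = 3.46e-04). The 3 calls held with every array left out in turn. In all, 2 of 13 receptor and JAK-STAT genes (IRF9 and USP18) and 2 of 6 interferon regulatory factors (IRF7 and IRF9) were higher, and 0 were lower. IRF1 (-0.13), IRF3 (0.19) and the receptor and kinase genes IFNAR1 (-0.03), IFNAR2 (-0.28), JAK1 (0.08), JAK2 (0.25) and TYK2 (-0.11) were not called (adjusted p from 0.109 to 0.878). Of 10 interferon genes with a probe, IFNE alone was kept, and it differed by 0.28 (adjusted p = 0.0951). IFNB1, IFNL1, IFNL2, IFNL3, IFNA1, IFNA2, IFNK, IFNG and IFNW1 were not detected on both arrays of either group.

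Enzymes that act beside the effectors showed the same direction in those called. ISG15, a ubiquitin-like modifier, had intensities of 306 and 419 in mock cells and 2492 and 2111 with antagomiR-638, a rise of 2.63 ± 0.16 (adjusted p = 3.25e-05). Of its 6 conjugation genes tested, itself included, 4 were higher (median 1.14), HERC6, a ligase, by 1.59, while HERC5 (0.59, adjusted p = 0.0119) and UBA7 (0.54, 0.0210) were not called. UBE2L6, the conjugating enzyme, differed by 0.75, and 0.27 at its other probe, with the call lost without any 1 of the 4 mock and antagomiR-638 arrays (largest adjusted p 0.0336). Of 9 interferon-linked PARPs, which attach ADP-ribose, 3 were higher (median 0.55). PARP9 had 99.8 and 101 in mock cells and 362 and 398 with antagomiR-638, a difference of 1.76 ± 0.12 (adjusted p = 5.64e-05), PARP10 differed by 1.17 and PARP14 by 0.89, the latter lost without mock array 1 (0.0144) or antagomiR-638 array 1 (0.0229). Of 8 TRIM ligases, TRIM22 (1.29 ± 0.13) and TRIM38 (0.62) were higher, and TRIM38 was lost with any 1 of those 4 arrays left out (largest adjusted p 0.0651).

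Peptides are shown to T cells by MHC class I. Of 20 genes of MHC class I and antigen processing, 5 were higher and 0 lower (median 0.28). TAP1, a subunit of the peptide transporter, had 944 and 1048 in mock cells and 1998 and 2126 with antagomiR-638, a difference of 1.04 ± 0.12 (adjusted p = 4.78e-04), and HLA-B had 1094 and 990 in mock cells against 2044 and 2142 with the inhibitor, 1.00 ± 0.12 (adjusted p = 5.54e-04), although HLA probes may read more than 1 gene of the family. B2M, the light chain, was not called (0.54, adjusted p = 0.0204). The higher members were 2, 3, 2 and 2 with mock array 1, mock array 2, antagomiR-638 array 1 and antagomiR-638 array 2 left out in turn. Of 19 targets of NF-κB and chemokines, 0 were higher and 1, CXCL1, lower (-0.82, with a list median of -0.08), and its call was lost without mock array 2 (0.0206), antagomiR-638 array 1 (0.0240) or antagomiR-638 array 2 (0.0239). CXCL8 gave 7160 and 7091 in mock cells and 5343 and 5995 with antagomiR-638 (-0.33, adjusted p = 0.0709), and CXCL10 was not detected on both arrays of either group.

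The promoters of these genes were read in RefSeq (GRCh38.p14) for the core of the interferon-stimulated response element, GAAANNGAAA, on both strands, within 250 bases before and 50 after the start. Of the 11250 genes, 9130 had a promoter here. The core occurred in 3.65% of all 27305 promoters, in 2.83% of all tested genes (258 of 9130), in 6.42% of those called higher (37 of 576) and in 1.78% of those called lower (8 of 449). Among antiviral effectors it occurred in 23 of 33 promoters (69.7%). It was present in 18 of 26 effectors that were called higher (69.2%) and in 5 of 7 that were not called (71.4%), and in the 250 bases before the start alone in 17 (65.4%) and 4 (57.1%). Genes called higher outside the antiviral lists held it in 13 of 535 (2.43%), close to the 2.83% of all tested genes. The promoters of the 6 largest rises with a match are shown, each as 60 bases with the matched letters in capitals.
IFIT1, chr10:89392495-89392554, plus strand: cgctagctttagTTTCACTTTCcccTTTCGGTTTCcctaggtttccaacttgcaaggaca
MX1, chr21:41420544-41420603, plus strand: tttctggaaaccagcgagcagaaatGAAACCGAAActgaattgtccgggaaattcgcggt
IFI27, chr14:94110616-94110675, plus strand: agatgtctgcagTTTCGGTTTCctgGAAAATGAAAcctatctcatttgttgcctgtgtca
IFI44L, chr1:78620350-78620409, plus strand: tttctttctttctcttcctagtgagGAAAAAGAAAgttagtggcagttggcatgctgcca
IFI6, chr1:27672251-27672310, minus strand: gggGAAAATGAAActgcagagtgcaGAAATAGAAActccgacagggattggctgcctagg
EPSTI1, chr13:42992257-42992316, minus strand: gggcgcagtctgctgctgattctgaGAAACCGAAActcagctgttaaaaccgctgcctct
Capitals on these lines mark either the motif or its reverse complement, and overlapping or adjoining matches run together. A match describes letters and does not show that a factor binds there.

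Genes of cell division were lower with antagomiR-638. In bulk RNA, fewer cells of a type and less RNA per cell cannot be told apart. Of the 250 genes on the 12 cell-cycle lists, 140 were lower and 1, CDKN1A, was higher, with a median of -0.74 over the 250. NEK2, a kinase that separates centrosomes, had intensities of 598 and 640 on the mock arrays and 184 and 174 on the antagomiR-638 arrays, and fell by 1.70 ± 0.11 on the log2 scale (adjusted p = 5.45e-05). AURKB, the kinase of the chromosomal passenger complex, had 552 and 499 in mock cells against 193 and 164 with the inhibitor, and fell by 1.48 ± 0.13 (adjusted p = 1.44e-04). PLK1, which drives mitotic entry and exit, had 189 and 175 in mock cells against 56.8 and 63.1 with the inhibitor, and fell by 1.39 ± 0.13 (adjusted p = 1.99e-04). The groups did not overlap in any of the 3 genes, as in 66.9% of all genes tested.

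Of 16 mitotic kinases and chromosomal passengers, 15 were lower (median -1.33). BUB1, a checkpoint kinase, fell by 1.46 ± 0.12, TTK, its partner at the kinetochore, by 1.41 ± 0.12, AURKA by 1.31 ± 0.12 and its activator TPX2 by 1.45 ± 0.13. BIRC5, a passenger that also inhibits cell death, fell by 1.43 ± 0.11 (adjusted p = 1.25e-04). INCENP, the scaffold of the same complex, was not called (-0.42, adjusted p = 0.0384). The count was 14, 14, 13 and 14 with mock array 1, mock array 2, antagomiR-638 array 1 and antagomiR-638 array 2 left out in turn. All 12 mitotic kinesins tested, the motors that build and move along the spindle, were lower (median -1.18), against a background of 4.96% of genes. KIF20A had 989 and 1005 in mock cells and 345 and 322 with antagomiR-638 and fell by 1.54 ± 0.11 (adjusted p = 8.74e-05), KIF2C fell by 1.36 ± 0.11 and KIF15 by 1.35 ± 0.11. In the same order of arrays left out, the kinesins called lower were 11, 10, 6 and 9.

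At the centromere, 27 of 39 genes of the kinetochore and spindle checkpoint were lower and 0 higher (median -0.99). HJURP, the chaperone that places the centromeric histone, had 617 and 649 in mock cells and 201 and 205 with antagomiR-638 and fell by 1.57 ± 0.12 (adjusted p = 9.41e-05), and CENPA, that histone, fell by 1.43 ± 0.12. ZWINT fell by 1.44 ± 0.14, with differences of -1.63 and -0.35 at its other probes, and NDC80, which holds microtubules, had 340 and 328 in mock cells against 140 and 143 with the inhibitor and fell by 1.15 ± 0.12. CENPQ (-0.70, adjusted p = 0.0230) and MIS12 (-0.55, 0.0126) were not called. Of 17 condensin and cohesin genes, 9 were lower (median -0.76), among them TOP2A, the topoisomerase that untangles chromosomes, with 1298 and 1381 in mock cells and 421 and 489 with antagomiR-638, a fall of 1.53 ± 0.12 (adjusted p = 1.27e-04). The condensin subunit NCAPG2 fell by 1.22 ± 0.15, a call lost without antagomiR-638 array 1 (0.0113), whereas the cohesin core genes SMC3 (-0.47, 0.0183) and RAD21 (-0.22, 0.311) were not called. The condensin and cohesin count was 6, 6, 3 and 5 with mock array 1, mock array 2, antagomiR-638 array 1 and antagomiR-638 array 2 left out in turn. Of 18 genes of the anaphase-promoting complex and mitotic exit, 6 were lower. UBE2C, the ubiquitin-conjugating enzyme that works with that complex, had 2282 and 2230 in mock cells against 742 and 883 with the inhibitor, a fall of 1.46 ± 0.12 (adjusted p = 1.44e-04).

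Among the switches themselves, 13 of 18 cyclins, CDKs and partners were lower and 0 higher (median -1.0). CCNB2, a mitotic cyclin, had intensities of 870 and 842 in mock cells and 293 and 266 with antagomiR-638 and fell by 1.56 ± 0.11 (adjusted p = 8.74e-05). CDC25C, the phosphatase that frees CDK1 at mitotic entry, had 149 and 148 in mock cells against 36.3 and 37.0 with the inhibitor and fell by 1.65 ± 0.12 (adjusted p = 9.41e-05), and CCNA2, the cyclin of S phase and G2, had 1210 and 1225 in mock cells against 400 and 432 with the inhibitor and fell by 1.51 ± 0.12. CDC25A fell by 1.42 ± 0.12, with -0.23 and no call at its second probe. CDK1 itself fell by 1.03 ± 0.11. The G1 genes CCND1 (0.55, adjusted p = 0.0160), CCND3 (0.13, 0.478), CDK4 (-0.15, 0.360), CDK6 (-0.22, 0.272) and CCNE1 (-0.31, 0.0937) were not called. CDKN1A, the p21 inhibitor of CDKs, rose by 1.13 ± 0.12, from 6971 and 6381 to 14036 and 15156 (adjusted p = 3.72e-04), the only 1 of 6 CDK inhibitors tested that was called. CDKN1B (0.02) and CDKN2A (0.07) had adjusted p-values of 0.956 and 0.724.

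DNA replication is licensed at origins and carried on at forks. Of 49 genes of origins and forks, 31 were lower and 0 higher (median -0.76). MCM5, a subunit of the replicative helicase, had 238 and 251 in mock cells and 78.8 and 101 with antagomiR-638 and fell by 1.31 ± 0.13 (adjusted p = 2.88e-04), MCM2 by 1.25 ± 0.11 and POLE, the catalytic subunit of the leading-strand polymerase, by 1.28 ± 0.11. All 6 MCM helicase genes were called lower, from -1.31 in MCM5 to -0.65 in MCM7, and MCM2 and MCM5 kept the call with any 1 array left out (MCM4 was lost without mock array 2 or either antagomiR-638 array, and MCM3, MCM6 and MCM7 were each called in 2 of the 6 fits with 1 array left out). TK1, which salvages thymidine, had 375 and 426 in mock cells against 133 and 141 with the inhibitor and fell by 1.44 ± 0.12 (adjusted p = 1.43e-04), 1 of 5 of 16 nucleotide-supply genes that were lower, while TYMS (-0.36, adjusted p = 0.0706) and RRM2 (-0.33, 0.0932) were not called. Of 26 genes of homologous recombination and the Fanconi pathway, 12 were lower (median -0.67), MND1, a meiotic recombination factor, by 1.46 ± 0.11, RAD54L by 1.31 ± 0.11 and RAD51AP1 by 1.26 ± 0.12, and BRCA1 was not (-0.72, adjusted p = 0.0196). The counts were 21, 17, 13 and 12 for replication, 1, 2, 1 and 1 for nucleotide supply and 9, 6, 3 and 6 for recombination with mock array 1, mock array 2, antagomiR-638 array 1 and antagomiR-638 array 2 left out in turn.

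Of the transcription factors that drive these genes, FOXM1, which acts in G2, had 590 and 484 in mock cells and 183 and 176 with antagomiR-638 and fell by 1.5 ± 0.13 (adjusted p = 1.44e-04). E2F2 differed by -0.85, a call lost without antagomiR-638 array 1 (0.0125) or array 2 (0.0146), and MYBL2 was not called (-0.24, adjusted p = 0.238). In all 4 of 18 members were lower (median -0.24), and 2, 3, 1 and 1 with mock array 1, mock array 2, antagomiR-638 array 1 and antagomiR-638 array 2 left out in turn. All 15 genes of proliferation chromatin and the lamina had differences below 0, and 6 were called. H2AX, the damage-signalling histone, had 104 and 105 in mock cells against 47.6 and 39.1 with the inhibitor and fell by 1.03 ± 0.12 (adjusted p = 6.32e-04), and this call was lost without antagomiR-638 array 2 (0.0103). In the order of arrays given above, 3, 4, 2 and 0 of these genes were lower.

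**Figure D3:**
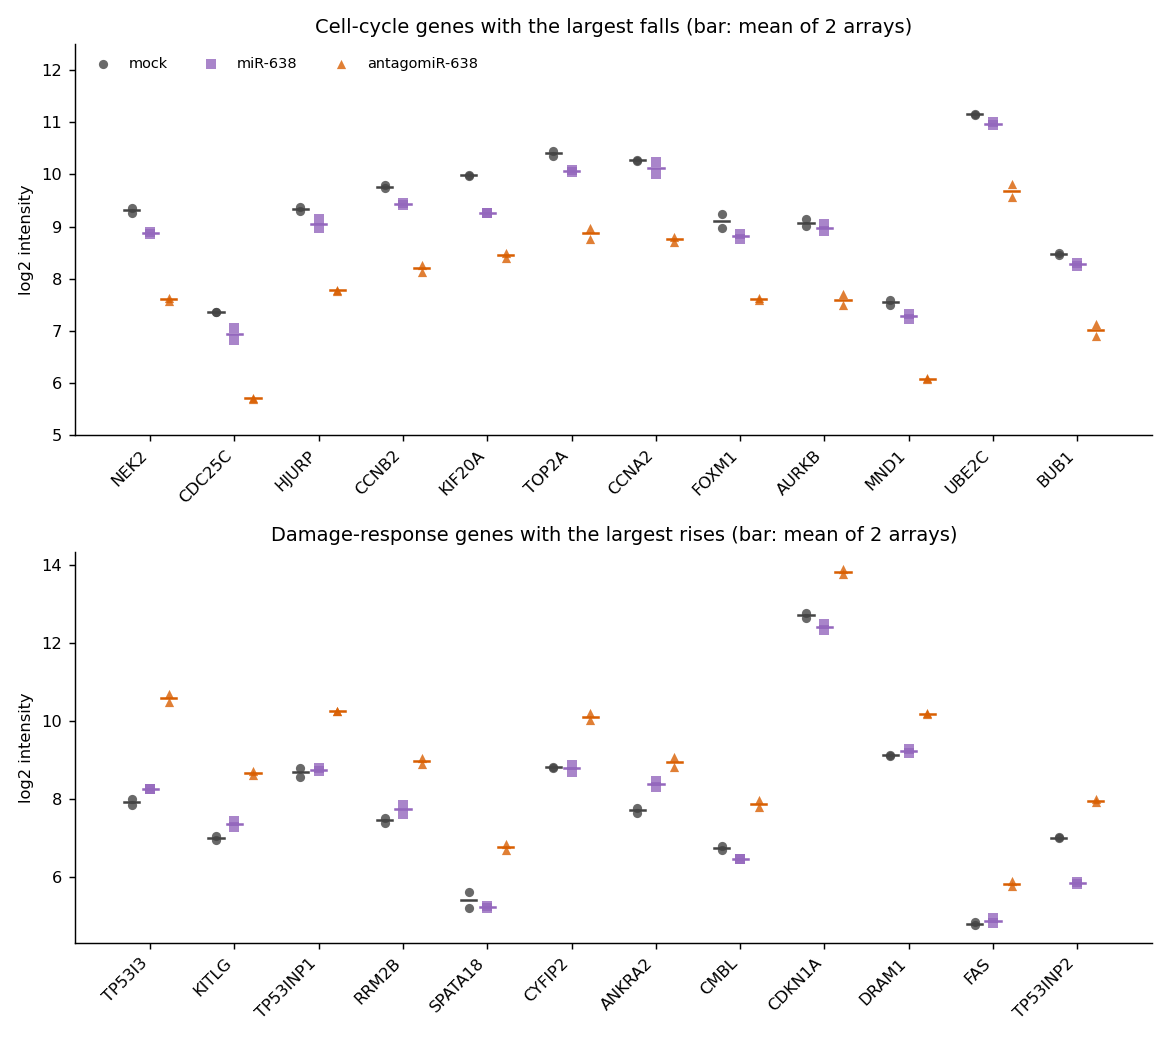
Log2 intensity of the 12 called cell-cycle genes with the largest falls (top) and the 12 called damage-response genes with the largest rises (bottom), each array a point, the mean of 2 arrays a bar, and groups by colour and shape. In every cell-cycle gene both antagomiR-638 arrays lie below both mock arrays, and in every damage-response gene they lie above them. Such separation of the 2 groups held in 66.9% of all genes tested.

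A pair of short motifs was searched in the same promoters, on both strands. The cell-cycle homology region was read as TTTGAA or TTCGAA and the E2F site as TTTGGCGC, TTTCGCGC, TTTCCCGC or TTTGCCGC. The first was found in 16.6% of all 27305 promoters, in 11.7% of all tested genes, in 27.2% of those called lower (122 of 449), in 10.1% of those called higher and in 45.7% of those at least 2-fold lower (64 of 140). Mitotic kinases and kinesins held it in 16 of 22 promoters (72.7%) and genes of the kinetochore list in 18 of 32 (56.2%), whereas genes of replication origins and forks held it in 1 of 42 (2.38%). The E2F site was found in 3.33% of all promoters, 5.54% of all tested genes, 13.4% of those called lower, 19 of 42 replication genes (45.2%) and 1 of 22 mitotic kinases and kinesins (4.55%). Of the replication genes, those called lower held it in 13 of 27 (48.1%) and those not called in 6 of 15 (40%). In the 250 bases before the start alone, the cell-cycle homology region was found in 10.2% of all tested genes, 20.3% of those called lower, 31.4% of those at least 2-fold lower, 11 of 22 mitotic kinases and kinesins (50%) and 6 of 32 kinetochore genes (18.8%). The E2F site was found there in 4.6% of all tested genes and in 13 of 42 replication genes (31%), 10 of 27 called lower (37%) and 3 of 15 not called (20%). Outside the cell-cycle lists, genes called lower held the cell-cycle homology region in 72 of 333 (21.6%). The promoters of the 5 largest falls with that motif, and of the 3 largest falls among replication genes with an E2F site, are shown with the match in capitals.
DEPDC1, chr1:68497077-68497136, minus strand: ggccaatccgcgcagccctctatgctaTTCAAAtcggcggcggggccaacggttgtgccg
GTSE1, chr22:46296817-46296876, plus strand: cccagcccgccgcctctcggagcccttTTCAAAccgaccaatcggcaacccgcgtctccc
HJURP, chr2:233854614-233854673, minus strand: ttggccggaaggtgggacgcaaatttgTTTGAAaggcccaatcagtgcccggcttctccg
CCNB2, chr15:59105090-59105149, plus strand: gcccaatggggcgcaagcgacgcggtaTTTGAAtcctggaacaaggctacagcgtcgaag
TOP2A, chr17:40418015-40418074, minus strand: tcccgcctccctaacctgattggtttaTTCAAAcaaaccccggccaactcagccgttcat
POLE, chr12:132687327-132687386, minus strand: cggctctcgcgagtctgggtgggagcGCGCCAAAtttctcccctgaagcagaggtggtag
MCM2, chr3:127598387-127598446, plus strand: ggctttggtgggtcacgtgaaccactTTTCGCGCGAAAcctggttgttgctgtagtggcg
POLE2, chr14:49688186-49688245, minus strand: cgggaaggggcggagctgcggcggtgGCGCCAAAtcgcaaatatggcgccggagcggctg
The first 5 lines show the cell-cycle homology region or its reverse complement, and the last 3 the E2F letters or their reverse complement.

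**Figure D4:**
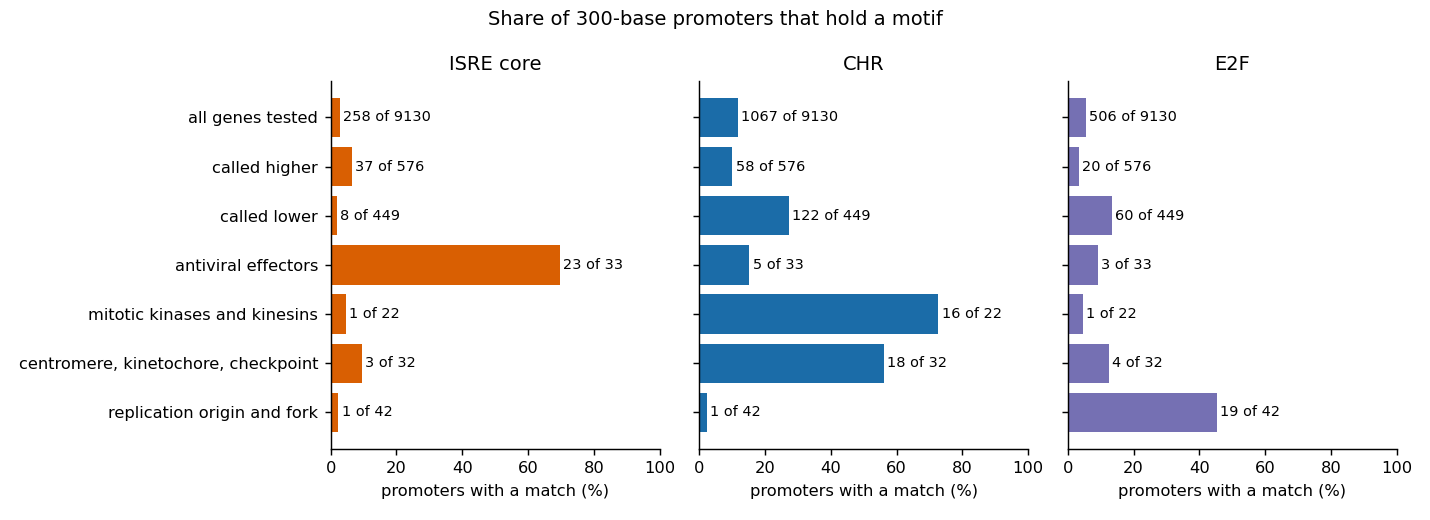
Share of promoters, in percent on the x axis, that hold the interferon-stimulated response element (ISRE) core (left), the cell-cycle homology region (CHR, middle) and the E2F site (right), for all genes tested, called genes and 4 gene groups, with the number of promoters beside each bar. The 3 motifs are each most frequent in a different group: 69.7% of antiviral effectors, 72.7% of mitotic kinases and kinesins and 45.2% of replication genes.

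Damage-response genes rose without a fall among those called. Of 7 genes of the core and feedback of this response, 3 were higher (median 0.22): TP53INP1, a stress-induced protein that also acts in autophagy, from 427 and 364 to 1215 and 1196 (rise 1.57 ± 0.12, adjusted p = 1.14e-04), TP53INP2 and MDM2. MDM2, a ubiquitin ligase, had 31.9 and 27.0 in mock cells and 55.3 and 67.6 with antagomiR-638, 0.77 ± 0.15 (adjusted p = 0.00724), and its call was lost with any 1 of the 4 mock and antagomiR-638 arrays left out (largest adjusted p 0.0648). TP53INP2 is among the candidate targets that the study picked on these arrays for a rise with antagomiR-638. Its call here is therefore no independent evidence. MDM4 (0.18) and PPM1D (0.18) had adjusted p-values of 0.627 and 0.396. The count was 2, 2, 1 and 2 with mock array 1, mock array 2, antagomiR-638 array 1 and antagomiR-638 array 2 left out in turn.

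Of 16 targets of arrest and repair, 5 were higher (median 0.45), with CDKN1A as given above. RRM2B, a damage-induced subunit of ribonucleotide reductase, had 167 and 150 in mock cells and 460 and 510 with antagomiR-638, a rise of 1.52 ± 0.13 (adjusted p = 1.44e-04). The count was 3, 2, 2 and 2 with mock array 1, mock array 2, antagomiR-638 array 1 and antagomiR-638 array 2 left out in turn. Of 16 targets of cell death, 7 were higher (median 0.47). TP53I3, an oxidoreductase, had 212 and 241 in mock cells against 1646 and 1424 with the inhibitor, a rise of 2.68 ± 0.13 (adjusted p = 6.81e-06), but 0.32 and no call at its second probe. SPATA18, a mitochondrial quality-control protein, had 32.9 and 21.0 in mock cells against 87.9 and 99.5 with the inhibitor and rose by 1.37 ± 0.15 (adjusted p = 3.98e-04), and FAS, the death receptor, had 11.1 and 12.62 in mock cells against 43.3 and 38.0 with the inhibitor, 1.02 ± 0.12 (adjusted p = 5.66e-04), a call lost without antagomiR-638 array 1 (0.0113). BAX (-0.11, adjusted p = 0.827) and TNFRSF10B (0.45, 0.0257) were not called, and in the same order of arrays 5, 4, 2 and 3 members were higher.

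Of 16 targets of metabolism and signalling, 8 were higher (median 0.60). KITLG, the ligand of the receptor KIT, had 107 and 117 in mock cells and 377 and 401 with antagomiR-638, a rise of 1.66 ± 0.12 (adjusted p = 8.54e-05). CYFIP2, of the WAVE actin complex, rose by 1.30 ± 0.12, ANKRA2 by 1.23 ± 0.13 and DRAM1, a lysosomal membrane protein that promotes autophagy, by 1.06 ± 0.11, from 536 and 546 to 1135 and 1158. These calls held, whichever array was left out, and the list's count was 6, 5, 5 and 5 with mock array 1, mock array 2, antagomiR-638 array 1 and antagomiR-638 array 2 left out in turn. Few genes of the wider death machinery were called: 1 of 13 BCL2-family genes was higher, PMAIP1, the activator NOXA (0.76, with 0.57 and no call at its other probe), and 1 of 11 caspase genes, CASP9 (0.62). Over all genes tested, 6.15% were higher. The call of CASP9 was lost with any 1 of the 4 arrays left out (largest adjusted p 0.0506), and that of PMAIP1 without mock array 2 (0.0249) or either antagomiR-638 array (0.0344 and 0.0187). BCL2L1 (0.48, adjusted p = 0.0245), MCL1 (-0.14, 0.483) and BCL2 (-0.19, 0.308) were not called.

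The biosynthetic genes called were mostly lower. All 12 genes of serine, asparagine and one-carbon metabolism had differences below 0, and 7 were called lower (median -0.73). PHGDH, the first enzyme of serine synthesis, had 2395 and 2451 in mock cells and 797 and 751 with antagomiR-638 and fell by 1.63 ± 0.11 (adjusted p = 7.27e-05). ASNS, asparagine synthetase, had 569 and 573 in mock cells against 179 and 172 with the inhibitor and fell by 1.62 ± 0.11 (adjusted p = 6.50e-05), while the mitochondrial folate enzyme MTHFD2 fell by 1.28 ± 0.13 and PSAT1, which follows PHGDH, by 1.20 ± 0.12. The count was 4, 4, 4 and 4 with mock array 1, mock array 2, antagomiR-638 array 1 and antagomiR-638 array 2 left out in turn. ATF4, the factor known for driving these enzymes, was itself not called (-0.17, adjusted p = 0.343). Of 14 stress genes around ATF4 and C/EBP factors, 3 were lower and 1 higher: CEBPD fell by 1.66 ± 0.15, from 843 and 723 to 210 and 265 (adjusted p = 1.79e-04), and XBP1, a factor of the unfolded protein response, by 0.99 ± 0.11, from 817 and 824 to 404 and 409. VLDLR, a lipoprotein receptor, differed by -0.79 and PPP1R15A, a phosphatase subunit, by 0.67, both lost with any 1 of the 4 mock and antagomiR-638 arrays left out (largest adjusted p 0.0327 and 0.0283).

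Amino-acid transporters and tRNA synthetases were mostly not called, and over all genes tested 4.96% were lower and 6.15% higher. SLC1A5, a glutamine transporter, was the 1 lower of 11 transporters, from 486 and 415 to 176 and 244 (-1.06 ± 0.16, adjusted p = 0.00187), lost without mock array 1 (0.0163) or antagomiR-638 array 1 (0.0192). AARS1 was the 1 lower of 18 cytosolic synthetases (-0.65, adjusted p = 0.00853), and it stayed called only without mock array 1. Of 22 genes of sterol synthesis and SREBP targets, 4 were lower and 1 higher (median -0.34). TM7SF2, a sterol reductase, had 51.5 and 76.5 in mock cells and 189 and 226 with antagomiR-638 and rose by 1.5 ± 0.16 (adjusted p = 3.81e-04). DHCR7, which makes cholesterol from its last precursor, had 422 and 430 in mock cells against 216 and 238 with the inhibitor and differed by -0.86 ± 0.13 (adjusted p = 0.00203). None of the 4 falls stayed called when any 1 mock or antagomiR-638 array was left out (counts of 0, 0, 0 and 0 with mock array 1, mock array 2, antagomiR-638 array 1 and antagomiR-638 array 2 left out in turn). In nucleolar ribosome biogenesis 24 of 25 genes had differences below 0 and 2 were called (median -0.27), RRP1B by -0.91, lost without antagomiR-638 array 1 (0.0116), and FBL by -0.58, lost with any 1 of the 6 arrays left out (largest adjusted p 0.0535). Differences below 0 were found in 5453 of all 11250 genes tested. MYC was not called (-0.32, adjusted p = 0.127).

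Lysosomal genes that were called were all higher. Of 35 hydrolases, 8 were higher and 0 lower (median 0.29), against 6.15% higher and 4.96% lower over all genes tested. FUCA1, a fucosidase, had 63.2 and 68.1 in mock cells and 181 and 192 with antagomiR-638, a rise of 1.31 ± 0.12 (adjusted p = 1.65e-04), and TPP1, a peptidase, had 526 and 474 in mock cells against 1090 and 1108 with the inhibitor, a rise of 1.11 ± 0.12 (adjusted p = 4.03e-04). Of 24 lysosomal membrane and V-ATPase genes, 4 were higher (median 0.28), all of the proton pump and its accessory proteins, ATP6V1A by 0.82, ATP6V0A1 by 0.73, ATP6V1D by 0.73 and ATP6AP2 by 0.66. Of 39 autophagy genes, 7 were higher (median 0.28), TP53INP1, TP53INP2 and DRAM1 from the damage-response lists among them. Of these, TP53INP2 was picked by the study on these arrays for its rise, so it is no independent evidence. The receptor OPTN differed by 0.93 ± 0.12, lost without antagomiR-638 array 1 (0.0141), and SQSTM1, or p62, which carries ubiquitinated cargo, had 4683 and 5067 in mock cells against 8216 and 7835 with the inhibitor, 0.72 ± 0.12 (adjusted p = 0.00316), lost with any 1 of the 4 mock and antagomiR-638 arrays left out. The counts were 4, 3, 2 and 3 for hydrolases, 0, 1, 0 and 0 for the membrane list and 6, 5, 2 and 4 for autophagy with mock array 1, mock array 2, antagomiR-638 array 1 and antagomiR-638 array 2 left out in turn.

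CD68, a lysosomal membrane protein used as a leukocyte marker, rose from 1934 and 1813 to 4149 and 3473 (1.01 ± 0.13, adjusted p = 0.00105), a call lost without mock array 2 (0.0108) or antagomiR-638 array 1 (0.0166). It was 1 of 3 leukocyte markers kept. The summed intensity of the 3 was 1846 to 1961 in mock cells and 3483 to 4170 with antagomiR-638, and without CD68 it was 27.4 to 32.9 and 9.93 to 21.5. PTPRC, CD3D, CD3E and ITGAM were not detected on both arrays of either group.

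Among genes of cell shape, ACTA2, the smooth-muscle actin, had 202 and 207 in mock cells and 735 and 615 with antagomiR-638 and rose by 1.64 ± 0.13 (adjusted p = 1.27e-04), 1 of 2 higher of 10 contractile genes. FHL2, the other, differed by 0.63 and was lost with any 1 of the 4 arrays left out (largest adjusted p 0.0515). Of 11 YAP and TEAD targets, 3 were higher: ANKRD1, a muscle ankyrin-repeat protein, rose by 1.5 ± 0.14 from 122 and 120 to 339 and 412, while YAP1 (1.10) was lost without mock array 2 (0.0121) or antagomiR-638 array 1 (0.0199) and CCN2 (0.80) with any 1 of the 4 arrays left out (largest adjusted p 0.0372). TAGLN (0.27, adjusted p = 0.293) and CCN1 (0.23, 0.211) were not called.

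Few genes of the machinery that makes and uses microRNAs were called. Of 13 genes tested, DICER1, which cuts the hairpin, differed by -0.69 (-0.21 and 0.05 and no call at its other probes) and RAN, the GTPase of nuclear export, by -0.76 (-0.10 and no call at its other probe). DICER1 was lost with any 1 of the 4 mock and antagomiR-638 arrays left out (largest adjusted p 0.0423), RAN without mock array 2 (0.0297), antagomiR-638 array 1 (0.0340) or antagomiR-638 array 2 (0.0310). AGO2 (-0.38, adjusted p = 0.0838) and DNM2, the host gene (-0.29, 0.249), were not called. The candidate miR-638 targets of the study were picked on these arrays for a rise with antagomiR-638 and a fall with miR-638. Their direction is therefore no independent evidence: 27 of 27 tested had differences above 0 and 7 were called higher (median 0.30). APCDD1L had 117 and 115 in mock cells and 316 and 309 with antagomiR-638, and TP53INP2 had 114 and 112 in mock cells against 240 and 226 with the inhibitor, differences of 1.32 ± 0.12 and 0.95 ± 0.11. Without antagomiR-638 array 1 the call of TP53INP2 was lost (0.0111), and the candidates called were 2, 2, 1 and 2 with mock array 1, mock array 2, antagomiR-638 array 1 and antagomiR-638 array 2 left out in turn.

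**Figure D5:**
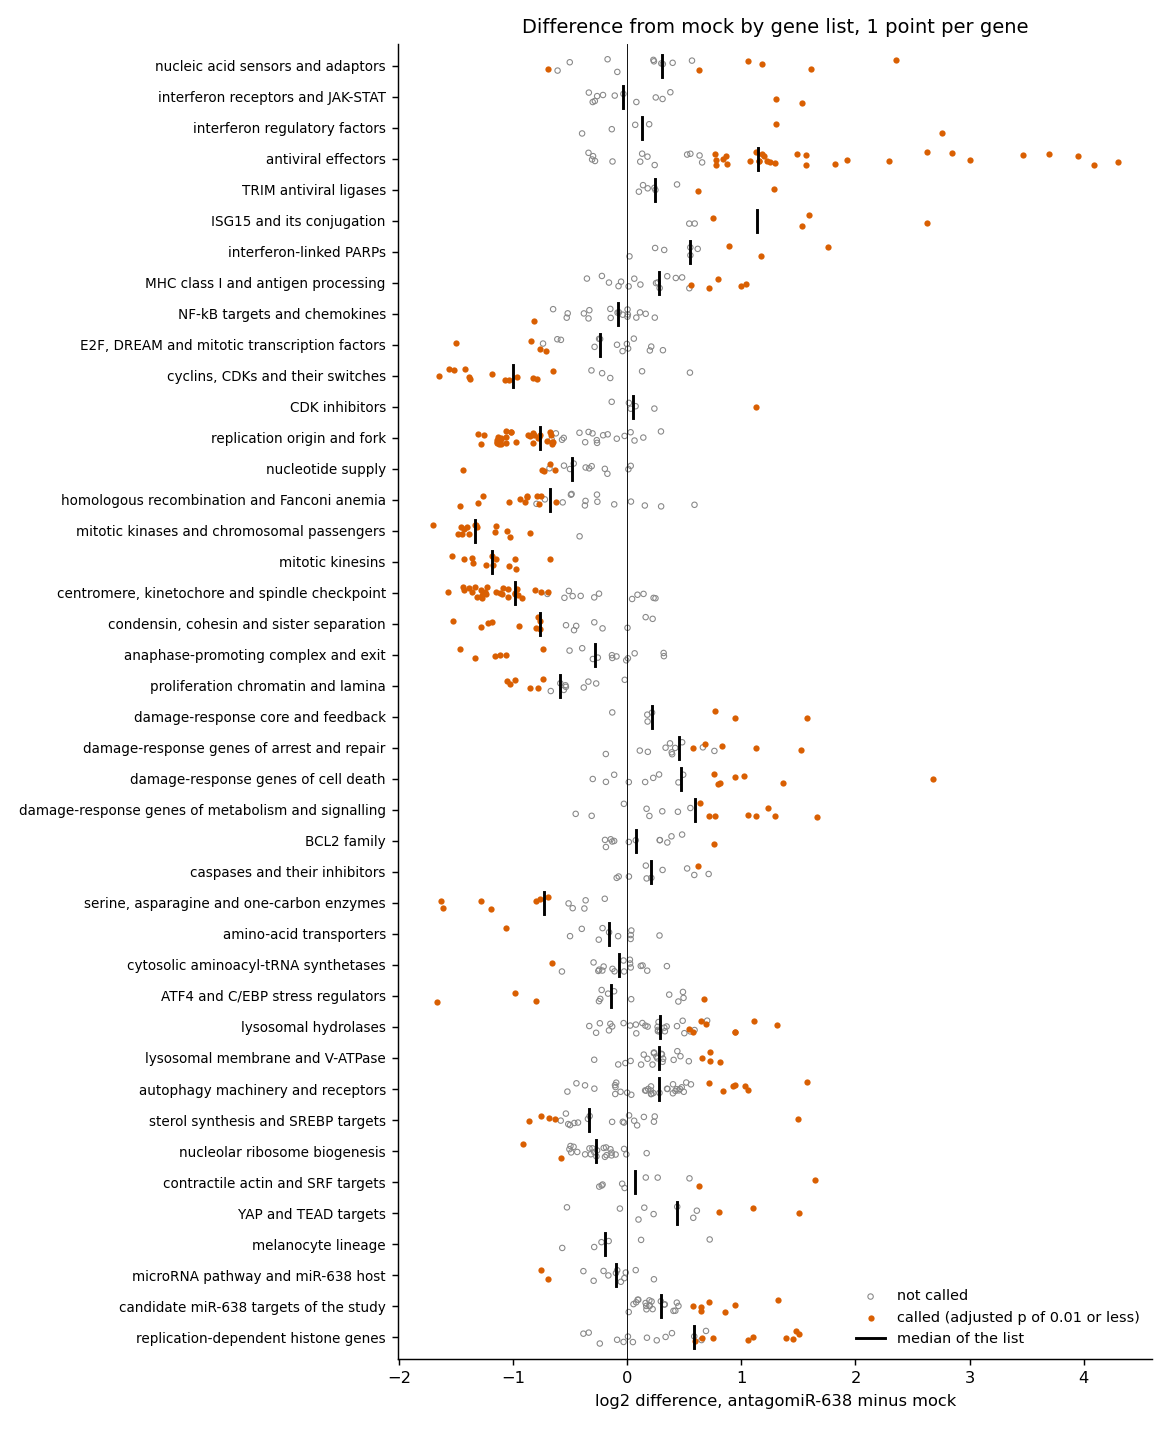
Log2 difference, antagomiR-638 minus mock, on the x axis for each gene of the lists with 5 or more genes tested, filled where the gene was called, with the median of each list as a black bar. The medians run from -1.33 in mitotic kinases and chromosomal passengers to 1.14 in antiviral effectors, against 0.01 over all genes.

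Several of the largest changes lay outside these lists. CYP4F2 and CYP4F3 encode fatty-acid hydroxylases of like sequence, which their probes may not separate. CYP4F2 was not detected in mock cells (5.11 and 3.04) and read 211 and 176 with antagomiR-638, at least 8.79-fold higher (adjusted p = 6.92e-06). CYP4F3 had 9.95 and 5.98 in mock cells against 206 and 217 with the inhibitor, a rise of 3.22 ± 0.12 (adjusted p = 4.69e-06), with 0.47 and no call at its second probe. CDH10, a cadherin mostly of nervous tissue, rose by 2.72 ± 0.11 from 24.9 and 26.5 to 255 and 260, and SUGCT, a mitochondrial CoA-transferase, by 2.47 ± 0.11 from 326 and 348 to 1958 and 1920. SYNC, an intermediate-filament protein, rose by 2.43 ± 0.13 (0.93 at its second probe) and WDR72 by 2.09 ± 0.14. TXNIP, which binds thioredoxin and limits glucose uptake, rose by 2.16 ± 0.12 from 191 and 224 to 945 and 1021 (adjusted p = 2.30e-05). Among the falls, DEPDC1 had 733 and 740 in mock cells and 206 and 219 with antagomiR-638 and fell by 1.72 ± 0.11 (adjusted p = 5.05e-05), TROAP, a spindle protein, fell by 1.72 ± 0.15, GTSE1, a microtubule-binding protein, by 1.57 ± 0.15, DEPDC1B by 1.48 ± 0.14 and CDKN3, a phosphatase of CDKs, by 1.53 ± 0.13. MIX23, a mitochondrial protein, had 233 and 263 in mock cells against 70.4 and 66.8 with the inhibitor and fell by 1.64 ± 0.12. All genes named in this paragraph kept their call with any 1 array left out.

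The same genes were read on the arrays of cells given miR-638, with differences taken against the same 2 mock arrays, so the comparisons share their controls and the values stand side by side. IFIT1 read 116 and 86.7 with miR-638 (0.76 against mock, adjusted p = 0.0232) and 1391 and 1293 with antagomiR-638. MX1 read 312 and 305 with miR-638 (1.26, adjusted p = 0.00443) and IFI27 161 and 141 (1.42, 0.00269). For these 3 genes the miR-638 arrays lay above the mock arrays and below the antagomiR-638 arrays. They do not stand for the list: of the 42 antiviral effectors, 4 were higher with miR-638 and 0 lower (median 0.13). Over all 11250 genes tested, 218 were higher with miR-638 and 135 lower. ASNS read 1143 and 1178 with miR-638 (1.00, adjusted p = 0.00113) and 179 and 172 with antagomiR-638, and XBP1 read 2239 and 2037 (1.36, 5.04e-04) and 404 and 409, above mock on the one and below it on the other. TP53INP2 read 42.2 and 40.9 with miR-638 (-1.16, adjusted p = 6.93e-04), below both mock and antagomiR-638. The study picked TP53INP2 on these arrays for that order, so it is no independent evidence. TXNIP read 623 and 588 (1.48, adjusted p = 5.06e-04), between the other groups, and NEK2 read 450 and 459 (-0.43, adjusted p = 0.0435). CDKN1A read 5187 and 5736 (-0.29, adjusted p = 0.168), below mock and not called.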

How the data were processed

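Total RNA of SK-Mel-147 cells was hybridised to 6 Illumina HumanHT-12 v4 arrays. The deposited intensity values were normalized by the authors with lumi (version not given in the sources used here): 26.2% lie below 0 and sorted columns differ by at most 0.349, so they are background-subtracted and quantile-normalized. The deposited detection p-value moves in steps of 1 in 770. Values went through limma 3.58.1 in R 4.3.3: normexp with detection p-values and an offset of 16, quantile normalization and log2. This draws fold changes of dim probes toward 0. A limma model of 3 group means over all 6 arrays (3 residual, 6.29 prior degrees of freedom) tested antagomiR-638 minus mock, two-sided, with Benjamini-Hochberg adjustment over 19413 kept probes. The brightest kept probe stood for its gene, and 2970 genes had several. Symbols came from the platform table (1 symbol for 30112 probes, several for 8, none for 17199; 30073 matched RefSeq). A probe undetected on both arrays of a group was set at the detection limit for a lower bound on its fold.

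Genes were named as the 20 largest rises and falls among called genes without overlap between groups, and up to 10 called members of each list; other list members are named after their values were seen. Members and lists were chosen with earlier results of these data known. The number of arrays limits the precision. A further promoter motif was searched and is not reported here. Alternatives changed background, scaling, filter, threshold, test, probe choice, block and arrays.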

Additional observations from a re-analysis of the deposited data

How the results depend on the processing

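Of 1250 genes called, and 266 of them on the gene lists, 254 and 77 were called with a floor of 16 in place of normexp, 765 and 210 without the detection filter, and 2777 and 373 at an adjusted p of 0.05 or less. With the unmoderated linear model, 0 and 0 were called after adjustment, against 3701 genes at an unadjusted p under 0.05 and 1250 by limma. Leaving out 1 array in turn gave 310 to 1137 genes and 128 to 260 list members, the lowest without antagomiR-638 replicate 1. With the floor, 49.6% of called genes were higher, against 55.4%. The other alternatives gave between 982 and 1810 genes. At an adjusted p of 0.05, the share of lower genes with the cell-cycle homology region was 20.5% and that with an E2F site 10.1%. Among genes called at 0.01, the shares in the 250 bases before the start alone were 20.3% and 10%, against 27.2% and 13.4% with the 50 bases after it. The cause was not tested. None of the 210 genes named by the rule above changed sign under any alternative run, and the other genes named were not followed there. Those 210 were picked as called on the same arrays, so a kept sign was likely from the start and is no independent evidence. Replicate numbers did not pair the samples (correlation of deviations between mock and antagomiR-638, -0.05), and with the replicate number as a block 982 genes and 246 list members were called, and 14 of 210 named genes were not. Differences of probes near the detection limit, an intensity of 7.02 to 7.58, are limited by signal over background.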

Other observations

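Histone genes were looked at after their values had been seen, by taking every tested gene named as a replication-dependent histone. Of these 23, 9 were higher with antagomiR-638 and 0 lower, with a median log2 difference of 0.59 against 0.01 over all genes, and 4 of the 9 kept the call with any 1 array left out. H2BC21, an H2B gene, had intensities of 32.7 and 52.6 in mock cells and 146.58 and 149 with antagomiR-638, a rise of 1.5 ± 0.17 (limma, adjusted p = 4.17e-04). H2BC5, another H2B gene, had 302 and 240 and 736 and 789, a rise of 1.45 ± 0.14 (adjusted p = 2.04e-04). H2AC6 rose by 1.39 ± 0.14 and H4C8 by 1.10 ± 0.11. H4C3 gave -0.38 (adjusted p = 0.0900) and H2AC25 -0.34 (0.0910), and neither was called. Histone genes are near-identical copies of one another, so their probes may read more than 1 of them. Which forms of histone RNA the probes read was not tested. Nor was it tested whether the rise concerns RNA made during DNA replication. The variant histone gene H2AX was lower (-1.03), as were 31 of 49 replication genes.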
